A study of Mus musculus with 6 samples.

Results

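The genes of hyaluronan synthesis, turnover and binding were examined in cultured cells taken from mouse muscle. The 10 genes were taken by name: the synthases Has1, Has2 and Has3, the hyaluronidases Hyal1 and Hyal2, the receptors Cd44 and Hmmr, and the matrix binders Tnfaip6, Vcan and Hapln1. They were found through the gene annotation of 2 Affymetrix chips, MOE430A and MOE430B. Of 18193 genes with a probe set of their own, 9 were hyaluronan genes, with 27 of the 45137 probe sets (18 on MOE430A and 9 on MOE430B). Hyal1 had no probe set of its own, as both of its probe sets were annotated to Naa80 as well.

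All arrays held RNA of 1 kind of culture, so no treatment or genotype was compared. The cells came from the hind leg of male Balb/c mice and were enriched by sorting for the surface antigen Sca1. They grew as myospheres, which are floating clusters, for 4 days in NeuroCult neural stem cell medium with LIF, B27, EGF and an additive written bf6f, and RNA was made at passage 1 from 2000000 cells. Replicates 1, 2 and 3 were each hybridised to both chips, giving 6 arrays. The labels do not say that the replicates were separate cultures or animals, so every p-value below measures only the spread between these arrays, which may be technical, and the number of arrays limits the precision.

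Hyaluronan is a long unbranched polysaccharide of alternating glucuronic acid and N-acetylglucosamine. Unlike other glycosaminoglycans it is made at the plasma membrane, by synthases that draw on cytosolic UDP-sugars and extrude the chain, and it carries no core protein. Outside the cell it is bound by the receptor Cd44 and by link-module proteins such as versican (Vcan) and its link protein Hapln1, and it is cleaved by hyaluronidases. In muscle and other connective tissue it forms the loose pericellular matrix around fibroblasts and progenitor cells.

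Vcan and Hapln1 are direct neighbours on mouse chromosome 13, and are shown because they lay on opposite sides of the background limit described below, and Hmmr is shown because its probe sets disagreed. The windows below run from 250 bases before to 50 bases after the gene start, from RefSeq, build GRCm38.p6, 5′ to 3′ on the gene's strand. Capitals mark the GC box GGGCGG or its reverse complement in the Vcan window, at chr13:89742463-89742762 on the minus strand, and in the Hapln1 window, at chr13:89540386-89540685 on the plus strand. In the Hmmr window, at chr11:40733388-40733687 on the minus strand, they mark the CCAAT box, CCAAT or its reverse complement ATTGG.
Vcan: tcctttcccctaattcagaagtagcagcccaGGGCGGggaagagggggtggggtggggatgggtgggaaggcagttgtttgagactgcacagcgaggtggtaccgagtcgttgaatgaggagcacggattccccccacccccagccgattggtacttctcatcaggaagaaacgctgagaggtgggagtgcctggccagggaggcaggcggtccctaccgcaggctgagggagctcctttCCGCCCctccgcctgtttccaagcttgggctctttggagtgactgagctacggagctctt
Hapln1: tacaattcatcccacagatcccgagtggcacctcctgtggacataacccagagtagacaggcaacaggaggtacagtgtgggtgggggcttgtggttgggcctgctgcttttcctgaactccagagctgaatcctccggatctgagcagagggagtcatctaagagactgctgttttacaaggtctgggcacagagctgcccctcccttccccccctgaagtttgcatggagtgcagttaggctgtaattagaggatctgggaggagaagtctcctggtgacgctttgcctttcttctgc
Hmmr: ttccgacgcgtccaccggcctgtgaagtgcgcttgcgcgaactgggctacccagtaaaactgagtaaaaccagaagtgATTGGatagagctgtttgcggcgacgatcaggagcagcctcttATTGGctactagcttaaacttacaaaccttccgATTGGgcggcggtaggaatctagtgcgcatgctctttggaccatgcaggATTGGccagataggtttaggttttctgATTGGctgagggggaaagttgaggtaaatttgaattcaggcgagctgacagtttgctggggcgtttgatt

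The Vcan window held 2 GC boxes and the Hapln1 window 0, where 35.7% of all 32851 windows in the RefSeq table held at least 1. The Vcan window held 12 CG dinucleotides and the Hapln1 window 3, against a median of 7 over all windows. Of other genes above the limit, Has1 held 0 GC boxes and 5 CG dinucleotides, and Cd44 held 1 and 6. Hyal2, Hmmr and Tnfaip6 held 1 GC box each, with 18, 16 and 12 CG dinucleotides. Whether these letters go with the side of the limit was not tested. The Hmmr window held 5 CCAAT boxes, all in the reverse orientation, and 0.271% of all windows held 5 or more, while 37.4% held at least 1. The third of these boxes shares its last 2 letters with the only GC box of that window. These matches describe letters in the window and say nothing of a factor bound there. Windows were found for 8 of the 10 genes, and none for Has2 and Has3.

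Levels are MAS5 signals, a linear intensity that summarises the probes of a probe set, and each is read against a background limit. The limit was the 95th percentile of the signals of genes of tissues other than muscle (150 probe sets on MOE430A and 43 on MOE430B), such as odorant receptors and keratin-associated proteins. In replicates 1, 2 and 3 it stood at 820, 785 and 822 for MOE430A, and at 3266, 2940 and 2560 for MOE430B. The chips were scaled separately, so a signal is compared only with the limit of its own array. To be called above the limit, a probe set had to surpass it in replicates 1, 2 and 3 alike, and 1 such probe set was enough for its gene. For genes beyond the hyaluronan genes named above, the signals given are those of 1 probe set. It is the one whose lowest array stood highest against its limit, and other probe sets of the gene may not be above. Probe sets differ in how strongly they bind, so the signals of different probe sets are given side by side and not ranked as amounts of RNA. In whole cultures fewer expressing cells and less RNA per cell cannot be told apart. The control sets for Gapdh and actin read 8.55 to 16.5 times higher at the 3′ than at the 5′ end of the transcript over the 6 arrays, and their bearing on probe sets far from the 3′ end was not tested.

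Of the 9 hyaluronan genes with a probe set of their own, 8 were above the limit, all but Hapln1, where 36.1% of all genes were. All 8 were above on MOE430A, and with that chip alone 42.7% of all genes were. With the 99th percentile as limit 4 of the 9 were above, as Has2, Has3, Hyal2 and Tnfaip6 were lost, beside 27.0% of all genes. Has1, Has3, Hyal2 and Tnfaip6 have 1 probe set each, and all 4 were above, against 22.1% of all genes with 1 probe set. Cd44, Hmmr, Vcan and Hapln1 have 3 or more, and 3 of the 4 were above, against 59.1% of such genes. By probe set, 9 of 18 were above on MOE430A, where 35.1% of all probe sets were, and 1 of 9 on MOE430B, where 10% were. The MOE430B share of these genes was therefore near that of the chip as a whole.

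The distance from the limit was also tested with limma as log2(signal / limit) against 0. It placed 8 of the 18 MOE430A probe sets above the limit (32.5% of all on that chip) and 5 below it (47.9% of all), and left 5 on neither side. On MOE430B it placed 1 of 9 above (8.51% of all) and 8 below (73.6% of all). The median distance over the genes' best probe sets was 0.80 on the log2 scale, against -0.42 over all genes. The genes were chosen with earlier results of these data known, so these counts are descriptions of the list.

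**Figure D1:**
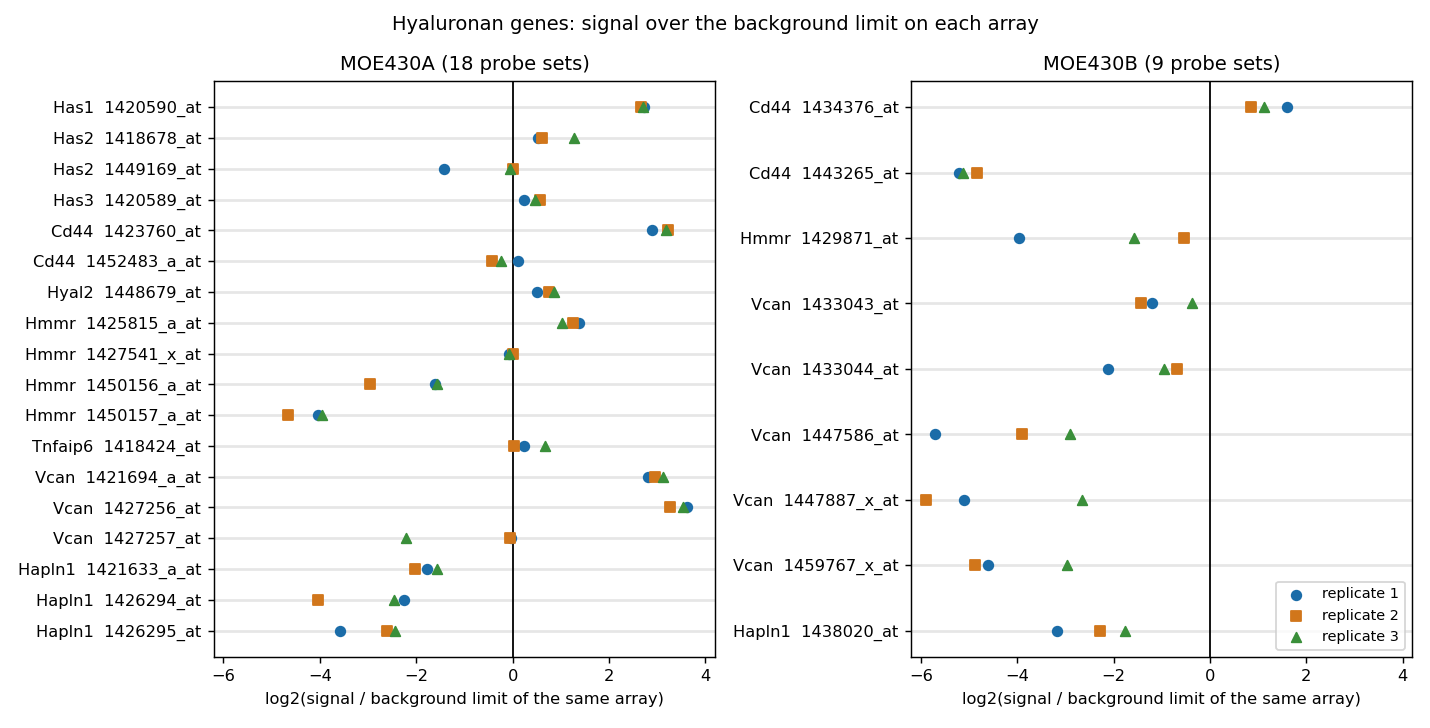
Each row is a probe set of a hyaluronan gene on MOE430A (left) or MOE430B (right), the x axis is log2 of its signal over the background limit of the same array, and circles, squares and triangles are replicates 1, 2 and 3. The Vcan, Cd44 and Has1 probe sets farthest to the right on MOE430A lie at mean distances of 3.47, 3.11 and 2.69, all Hapln1 points lie left of the line, and the Tnfaip6 square of replicate 2 lies almost on it.

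All 3 hyaluronan synthases were above the limit. Has1, the synthase usually described as the least active of the family, gave signals of 5405, 4974 and 5334 on MOE430A in replicates 1, 2 and 3. The replicates nearly coincided, and each was over 6 times the limit: the ratios were 6.59, 6.34 and 6.49. The mean was 5238 ± 231 (SD, n = 3), and the distance from the limit was 2.69 ± 0.09 (SE) in log2 units (limma, adjusted p = 1.11e-07).

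Has2, the main synthase of mesenchymal cells, which is required for heart development in the embryo, was read by 2 probe sets that disagreed. The probe set 1418678_at gave 1172, 1200 and 1993 in replicates 1, 2 and 3. Replicate 3 stood above the other replicates, and all 3 were above the limit, at a distance of 0.80 ± 0.17 (SE) in log2 units (limma, adjusted p = 0.00412). Against the 99th percentile limit that distance was 0.30 and the call was lost (limma, adjusted p = 0.193). The other, 1449169_at, gave 304, 793 and 786. Replicate 1 was low and the other two lay at the limit, with 1 of 3 arrays above it, so limma placed this probe set on neither side (adjusted p = 0.184). Both probe sets were designed on the same transcript record, and both spread more between arrays than at least 89.0% of probe sets of like signal (within a factor of 1.5).

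Has3, a synthase associated with shorter chains, gave 959, 1167 and 1131. Replicate 1 was the lowest, and all 3 arrays were above the limit, at 1.17 to 1.49 times its value. The distance was 0.42 ± 0.14 (SE) on the log2 scale, with a 95% confidence interval of 0.08 to 0.76 (limma, adjusted p = 0.0286). This call rested on replicates 2 and 3: without replicate 2 the adjusted p was 0.128, and without replicate 3 it was 0.0958. Has1 kept its call under each of these omissions, with an adjusted p of at most 0.000534 over all alternatives.

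Of the hyaluronidases, Hyal2, a glycosylphosphatidylinositol-anchored enzyme that cuts long hyaluronan at the cell surface, gave 1167, 1320 and 1484 in replicates 1, 2 and 3. All 3 were above the limit, by 1.42, 1.68 and 1.81 times, and the distance was 0.70 ± 0.13 (SE) in log2 units (limma, adjusted p = 0.00222). Against the 99th percentile limit the distance was 0.20 and the call was lost (limma, adjusted p = 0.284). Hyal1, the lysosomal enzyme that continues the breakdown, could not be read by itself. In the RefSeq table Hyal2, Hyal1, Naa80 and Hyal3 follow each other on chromosome 9, and the 2 probe sets named for both Naa80 and Hyal1 gave different answers. The one designed on the Hyal1 transcript record read 521, 478 and 436, below the limit on every array. The one designed on the Naa80 record read 1002, 1046 and 1272, above it on every array. Which gene's RNA each of these signals came from was not tested, and Hyal1 is counted as not measured.

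Cd44, the principal hyaluronan receptor of the cell surface, gave 6116, 7352 and 7499 by the MOE430A probe set 1423760_at. Replicate 1 was the lowest, and the 3 arrays were 7.46 to 9.37 times the limit (3.11 ± 0.10 SE in log2 units, limma, adjusted p = 1.22e-07). On MOE430B the probe set 1434376_at gave 9811, 5332 and 5571, and here replicate 1 was the highest. All 3 were above that chip's limit, at a distance of 1.19 ± 0.18 (SE) in log2 units (limma, adjusted p = 0.000138). The MOE430B array of replicate 1 came from another chip lot than those of replicates 2 and 3, while the MOE430A arrays shared 1 lot. The part of the lot in the higher Cd44 signal was not tested, and lot and replicate cannot be told apart on that chip.

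The remaining Cd44 probe sets were at or below the limit. The MOE430A set 1452483_a_at, whose ID ending marks probes that match several transcripts of 1 gene, gave 879, 580 and 698 and was above the limit on 1 of 3 arrays (limma, adjusted p = 0.38). The MOE430B set 1443265_at gave 88.6, 103 and 73.1, about 0.03 of the limit on each array (limma, adjusted p = 2.72e-06, below). Cd44 thus passed through 2 of its 4 probe sets, 1 on each chip.

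Among the hyaluronan genes, Cd44 alone surpassed the mean limits of MOE430A and of MOE430B, and the test for a difference between replicates was limited to such genes. With limma's moderated F-test, using chip as covariate, it did not pass (adjusted p = 0.891, unadjusted p = 0.396), where 1.14% of 613 genes did. Without this filter on low signals Hmmr, Vcan and Hapln1 entered as well, and limma called 0 of 3807 genes (92 at an unadjusted p under 0.05), so that fit says nothing about these genes. For Cd44, replicate 1 against the others pointed in opposite directions on the 2 chips.

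Hmmr, known as RHAMM, binds hyaluronan at the cell surface and associates with the mitotic spindle inside dividing cells. Its probe set 1425815_a_at gave 2131, 1863 and 1667 in replicates 1, 2 and 3. All 3 were more than 2 times the limit, at a distance of 1.22 ± 0.12 (SE) in log2 units (limma, adjusted p = 6.55e-05). Its ID ending marks probes that match several transcripts of 1 gene, and without probe sets of shared sequence the call was lost, with the remaining one, on MOE430B, at -2.02. The other 4 Hmmr probe sets were above the limit on no array. Of these, 1427541_x_at read 783, 784 and 782, just under the limit and with limma on neither side of it (adjusted p = 0.797). The sets 1450156_a_at, at 268, 101 and 276, and 1450157_a_at, at 49.9, 31.2 and 53.0, were below it (limma, adjusted p = 0.00418 and 0.000117). On MOE430B, 1429871_at gave 210, 2034 and 854, with replicate 1 far under replicate 2, and was below the limit on all 3 arrays.

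Hmmr is also a gene of dividing cells, and 10 of 14 measured cell cycle genes were above the limit, against 36.1% of all genes. Mki67, the proliferation antigen, gave 1918, 1547 and 1715, and the spindle assembly factor Tpx2, a binding partner of Hmmr, gave 6371, 5104 and 5140 on MOE430B. Top2a and Birc5 were above only by probe sets of shared sequence, and limma placed Ccnb2 on neither side of the limit (adjusted p = 0.3). Bub1, Kif11, Cenpe and Kif20a were not above the limit by any probe set.

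Of the matrix binders, Vcan, a large chondroitin sulfate proteoglycan that anchors in hyaluronan through its amino-terminal link modules, was above the limit by 2 probe sets. The probe set 1427256_at gave 9997, 7495 and 9546, with replicate 2 the lowest, at 9.55 to 12.2 times the limit. Its distance was 3.47 ± 0.10 (SE) in log2 units (limma, adjusted p = 8.18e-08). The set 1421694_a_at gave 5749, 6046 and 7141, with replicate 3 the highest, and its distance was 2.96 ± 0.10 (SE, limma, adjusted p = 1.27e-07).

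The third MOE430A probe set of Vcan, 1427257_at, gave 806, 761 and 178. Replicates 1 and 2 were just under the limit and replicate 3 was far under it, a spread larger than that of 96.0% of probe sets of like signal. It was designed on the same transcript record as 1427256_at, which read far above the limit on all 3 arrays. The 5 Vcan probe sets on MOE430B were below the limit on every array (limma, adjusted p of 0.0187 or less for each). The highest of them, 1433043_at, read 1412, 1082 and 1983, and 1433044_at, on the same record, read 751, 1818 and 1314. The other 3 had means of 183 to 201. In all, 2 of 8 Vcan probe sets were above the limit.

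Tnfaip6, known as TSG-6, is secreted under inflammatory signals and transfers the heavy chains of inter-alpha-inhibitor onto hyaluronan. It gave 962, 802 and 1310. Replicate 3 was the highest, and replicate 2 exceeded its limit only slightly, with a ratio of 1.02 against 1.17 and 1.59 in the others. Its distance was 0.31 ± 0.17 (SE) on the log2 scale, with a 95% confidence interval of -0.09 to 0.71, so limma did not place it above the limit (adjusted p = 0.128).

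Hapln1, the link protein that locks versican and aggrecan onto hyaluronan, was the only measured hyaluronan gene not above the limit. Its MOE430A probe sets gave 238, 192 and 277, then 171, 48.1 and 149, and then 68.0, 128 and 151. On MOE430B it gave 363, 601 and 749. All 12 of these values were below the limit of their array, at 0.06 to 0.34 of it, and limma placed all 4 probe sets below (adjusted p of 0.00379 or less). A signal under the limit does not show that a transcript is absent. Its genomic neighbour Vcan lay on the other side of the limit in the same 3 MOE430A arrays.

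**Figure D2:**
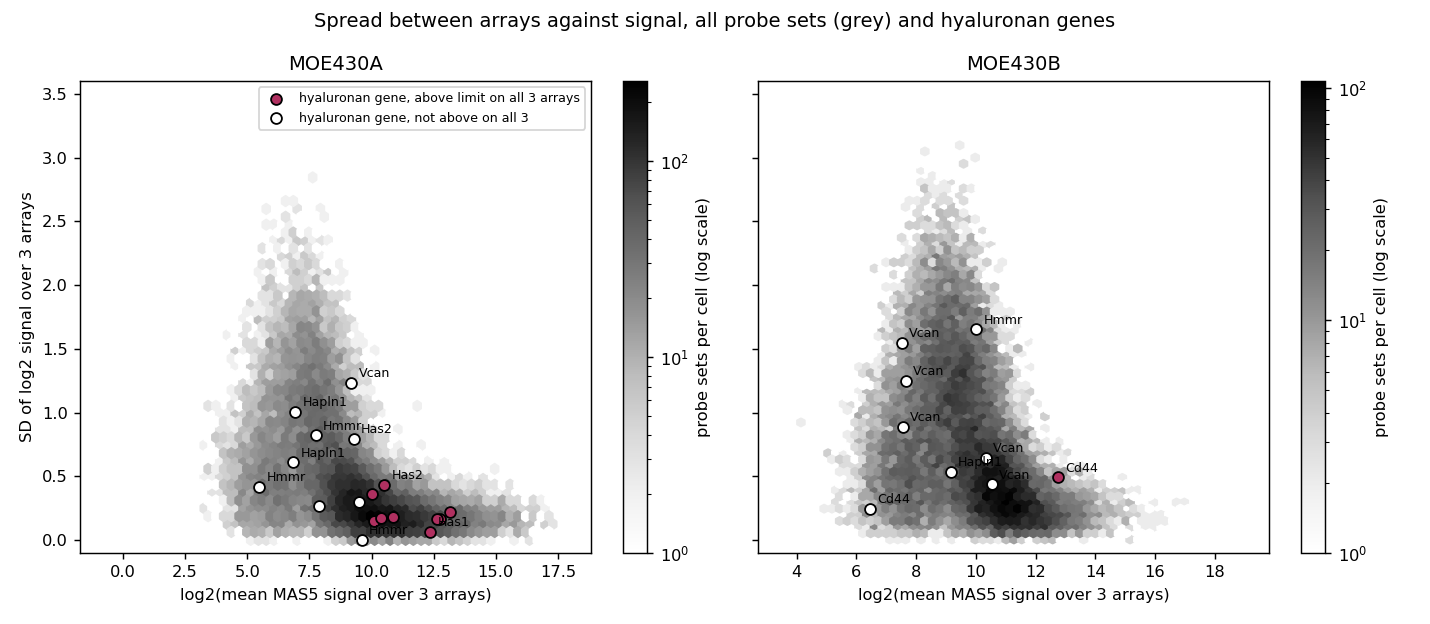
The y axis is the SD of log2 signal over the 3 arrays of a chip and the x axis log2 of the mean signal, with all probe sets in grey and those of the hyaluronan genes as circles, filled where above the limit on all 3 arrays. Has1 lies near the bottom of the cloud at an SD of 0.06, and the filled Cd44 circle on MOE430B lies high at 0.49. Open circles at low signal spread widely, up to an SD of 1.65 for Hmmr on MOE430B.

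Between arrays, the 10 probe sets above the limit had SDs of 0.06 (Has1) to 0.49 (Cd44 on MOE430B) on the log2 scale. The median over the 9 on MOE430A was 0.17, against 0.19 over all 7934 probe sets above the limit on that chip. Replicate 3 was the highest array for 5 of these 9, replicate 1 for 3 and replicate 2 for 1. No replicate was thus the highest for all of them.

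The precursors of hyaluronan are UDP-glucuronic acid and UDP-N-acetylglucosamine, and 10 of 12 measured genes of their supply were above the limit, beside 36.1% of all genes. Ugdh, which makes UDP-glucuronic acid, gave 23697, 31027 and 30438, at least 28.9 times the limit on each array. Gfpt2, an isoform of the enzyme that opens the hexosamine pathway, gave 26711, 24768 and 31677, and Uap1, which makes UDP-N-acetylglucosamine, gave 15169, 13610 and 20581. Gfpt1, the other isoform, was read on MOE430B at 13971, 9281 and 10975, all above that chip's limit. Pgm1, which interconverts glucose phosphates, Hk2, a hexokinase, and Gnpnat1, which acetylates glucosamine phosphate, were above as well, Pgm1 at 2671, 2390 and 2754, Hk2 at 5756, 5088 and 7999 and Gnpnat1 at 1274, 952 and 1317. Gfpt1 was above by 2 of 6 probe sets, Uap1 by 3 of 5, Gnpnat1 by 1 of 4 and Pgm1 by 1 of 2. Ugp2, Nagk and Hk1 were above only by probe sets with probes that match several transcripts. Pgm2 and Pgm3 were not above the limit on all arrays.

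Among other genes of hyaluronan turnover, 5 of 9 measured were above the limit (36.1% of all genes). Cemip, a hyaluronan-binding protein needed for depolymerisation by fibroblasts, gave 10289, 5242 and 6974 on MOE430B, with replicate 1 the highest, as for Cd44 on that chip. Its relative Cemip2 gave 2188, 2650 and 1776 on MOE430A. Cemip was above by 1 of 3 probe sets and Cemip2 by 2 of 3. The lysosomal exoglycosidases Hexa and Gusb, which remove the end sugars of hyaluronan fragments, were above as well, Hexa at 23744, 26352 and 23232 and Gusb at 1846, 1917 and 2414, and so was the caveolar protein Cav1, at 34884, 36811 and 29243. Hexa and Cav1 were above only by probe sets whose probes match several transcripts. The hyaluronidase relatives Hyal3, Hyal4, Hyal5 and the sperm enzyme Spam1 were below the limit on every array (limma, adjusted p of 0.00847 or less for each).

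Of other receptors and partners of Cd44, 8 of 13 were above the limit (36.1% of all genes). Layn (layilin), a hyaluronan receptor related to C-type lectins, gave 13292, 10695 and 10717 on MOE430B, all above the limit. Moesin (Msn), radixin (Rdx) and ezrin (Ezr), which tie the Cd44 tail to actin, were all above, Msn at 17682, 17204 and 19746. Ezr was above only by 1 probe set of shared sequence, with an ID ending in _x_at. The scaffold Iqgap1, at 13754, 10279 and 8229, and the ankyrins Ank1 and Ank3, which link membrane proteins to spectrin, were above too. Tlr4, which has been described as a sensor of hyaluronan fragments, gave 1852, 1622 and 1481 and was above by 1 of 4 probe sets. Layn and Msn were above by 1 of 2 each, Rdx by 2 of 3 and Iqgap1 by 3 of 7. Ank1 was above by 1 of 4 and Ank3 by 2 of 6. Lyve1, the hyaluronan receptor of lymphatic endothelium, gave 406, 341 and 281, and it and the clearance receptors Stab1 and Stab2 were above the limit on no array.

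Matrix binders beyond the listed genes were above the limit for 5 of 21 measured genes, beside 36.1% of all genes, and the shares were not tested against each other. Tnc (tenascin-C), which binds versican, gave 32489, 21415 and 44380, Ptx3, a pentraxin that cross-links hyaluronan with Tnfaip6, gave 7397, 8355 and 8749, and C1qbp gave 60151, 63855 and 50762. The C1qbp values are of a probe set of shared sequence, with an ID ending in _x_at, and 2 of 2 C1qbp probe sets were above. Tnc and Ptx3 were above by 1 of 2 probe sets each. Fbln1 and Fbln2, fibulins of which some bind versican, were above only by probe sets whose probes match several transcripts. The other lecticans Acan, Ncan and Bcan, the link proteins Hapln2, Hapln3 and Hapln4, and all 5 inter-alpha-inhibitor heavy chain genes Itih1 to Itih5 were not above the limit on all arrays. Acan exceeded it on 2 of 3 arrays, at 949, 778 and 930, as did Itih5, at 884, 885 and 794. Hapln4 exceeded the MOE430B limit on 1 array. The proteases that cut versican or shed Cd44 were above for 7 of 10 (36.1% of all genes), among them Mmp14 at 27208, 24869 and 22877, Adamts4 at 7570, 9112 and 8040 and Adamts1 at 4882, 3288 and 4554. Mmp9, Adam10 and Adam17 were above on MOE430A and Adamts9 on MOE430B, while Adamts5, Adamts15 and Adamts20 were not. Adam10 was above by 1 of 4 probe sets. Adamts5 exceeded the limit on 2 of 3 arrays, at 808, 1220 and 926.

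**Figure D3:**
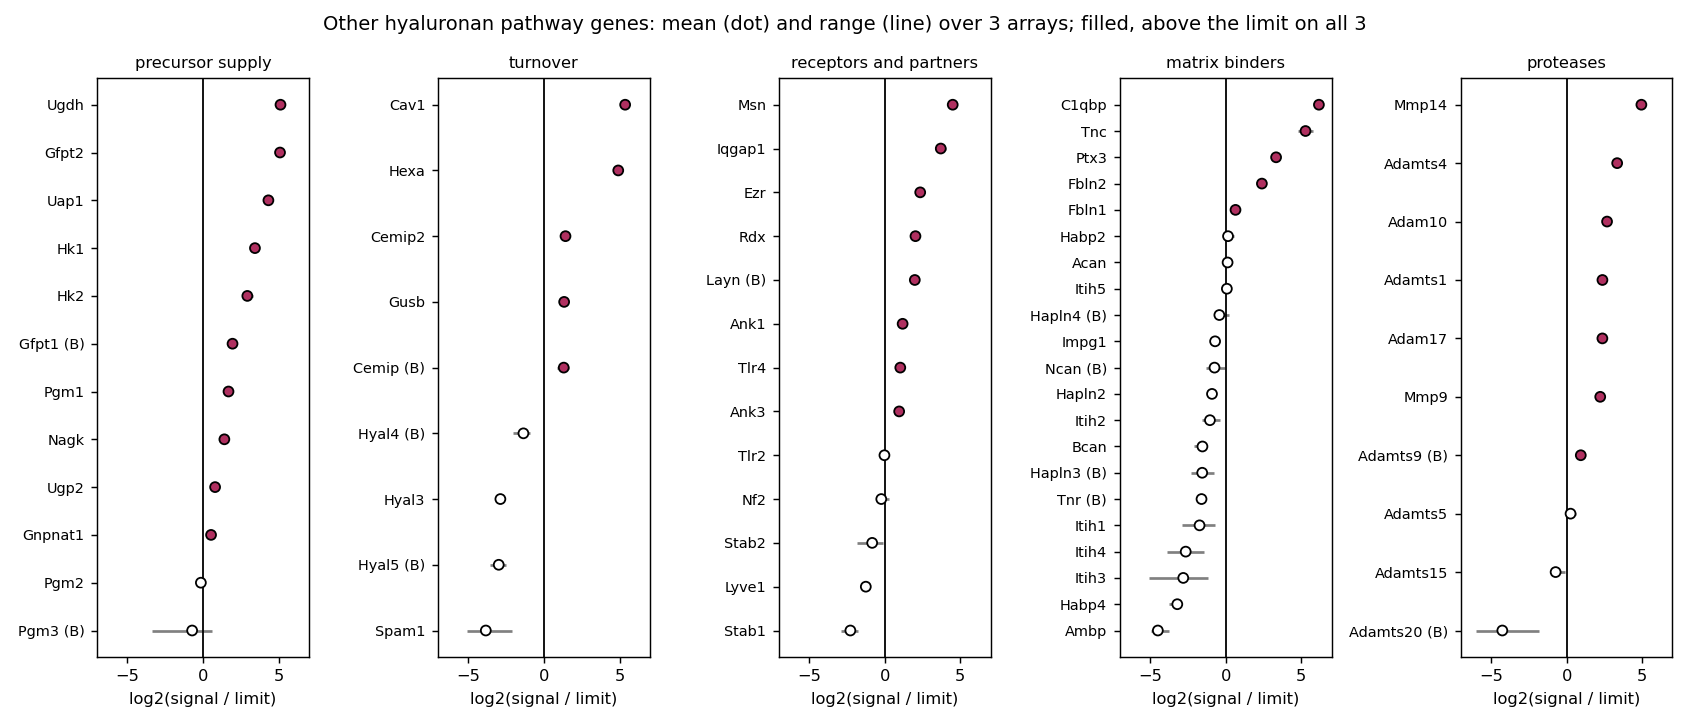
Each dot is a gene of the wider hyaluronan pathway at the mean over 3 arrays of log2 of signal over the limit, for its probe set with the highest lowest array, the line is the range over arrays, filled dots were above the limit on all 3, and (B) marks MOE430B. Precursor supply genes lie mostly right of the line (10 of 12), and matrix binders mostly left of it (16 of 21 open).

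The labelled cell population was compared with markers of the cell types a muscle digest can hold. Mesenchymal progenitor markers were above the limit for 9 of 11 measured genes (beside 36.1% of all genes), with Pdgfra at 12016, 13582 and 12602, and Osr1 and Cd248 were below it. Pdgfrb and Eng were above only by probe sets of shared sequence. Satellite cell and myoblast markers were above for 2 of 10 (beside 36.1% of all genes), Chrna1 at 3637, 3739 and 3401 and Vcam1 at 3220, 3051 and 3053. Myog, at 730, 1332 and 1468, and Myod1, at 1074, 605 and 1062, exceeded the limit on 2 of 3 arrays each, while Pax7 gave 316, 292 and 304 and Myf5 96.8, 94.2 and 39.5, both below the limit on all arrays. The gene of the sort antigen, Ly6a, had no probe set of its own in the annotation used here. Markers of chondrocytes, cells best known for making Hapln1 and Acan, were above for 0 of 8 (beside 36.1% of all genes). Acan, which is also counted among the matrix binders, exceeded the limit on 2 of 3 arrays. So did Sox9 by its best probe set, and Comp exceeded it on 1.

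Leukocytes also carry Cd44, and their markers were above the limit for 6 of 12 genes (beside 36.1% of all genes), among them Csf1r at 2322, 3415 and 3039 and Cd14 at 4428, 4031 and 5169. Adgre1, Lyz2, Laptm5 and Mpeg1 were above as well, Adgre1 and Laptm5 only by probe sets of shared sequence. Cd68 and Tyrobp exceeded the limit on 2 of 3 arrays each. The pan-leukocyte antigen Ptprc gave 519, 881 and 485 and exceeded the limit on 1 array, and Itgam, Fcer1g and Cd52 were below it on all 3. Endothelial markers were above for 5 of 8 (beside 36.1%), with Kdr at 1797, 1540 and 2187 and Pecam1 below the limit on all arrays, at 114, 258 and 121. Egfl7 was above only by a probe set of shared sequence, and limma placed Robo4 on neither side of the limit (adjusted p = 0.248). The share of each cell type in the hyaluronan gene signals was not tested.

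**Figure D4:**
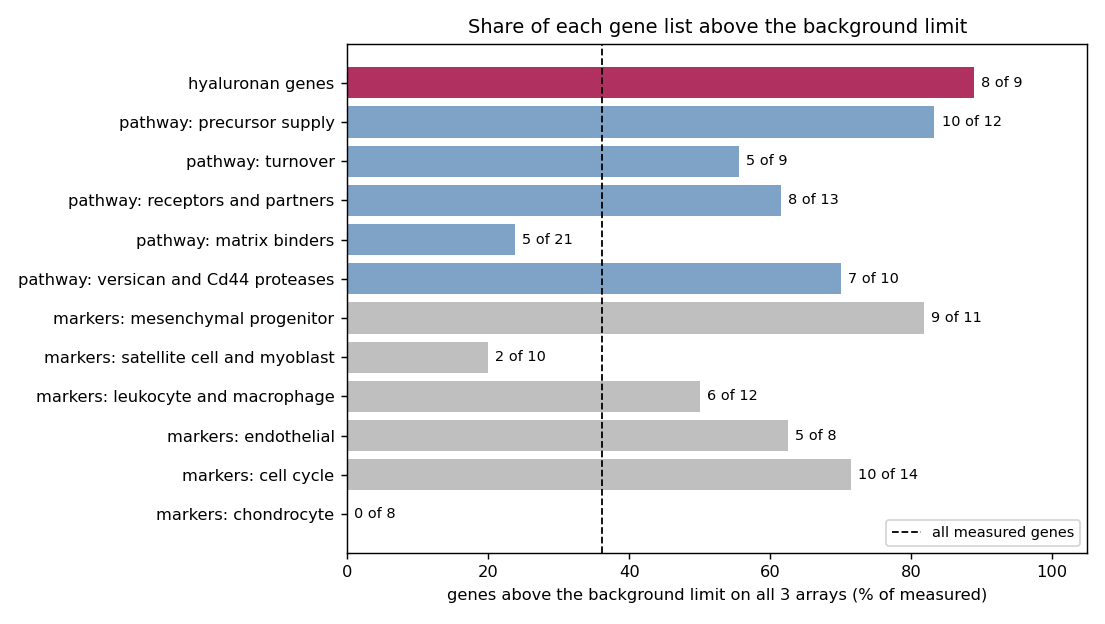
Bars give the percentage of measured genes of each list that were above the background limit on all 3 arrays of their chip, with the counts at the bar ends and the dashed line at the 36.1% of all genes. Of the 12 lists, matrix binders (5 of 21), satellite cell and myoblast markers (2 of 10) and chondrocyte markers (0 of 8) lie left of the line. The other 9 lie right of it, among them mesenchymal (9 of 11), cell cycle (10 of 14), endothelial (5 of 8) and leukocyte markers (6 of 12).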

How the data were processed

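Signals are linear intensity values made by the authors with MAS5, per the submitters' processing notes. Its version and target are not given in the sources used here. The deposited mean after trimming 2% from each end was 1500.2 to 1500.8 on all 6 arrays, so the authors scaled arrays and chips separately to 1 target. Chip type and lot, held under the unit other, come from the array information files, per the file headers. Symbols came from GEO's platform annotation, updated through Entrez numbers in RefSeq (GRCm38.p6), which held 20364 of 20393 single-gene probe sets on MOE430A and 14499 of 14674 on MOE430B, and probe sets of several genes (691 and 245) or none (1606 and 7656) were left out of gene counts. The 64 control probe sets of each chip were left out of all tests.

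Log2 ratios of signal to limit were tested per chip with limma 3.58.1 in R 4.3.3 (one-sample, intensity trend, two-sided, Benjamini-Hochberg over all probe sets of the chip, threshold 0.05), taking the limit as known. Replicates were tested with limma's F-test, with chip as covariate, on genes that surpassed the mean limits of MOE430A and of MOE430B. The fits were tested on simulated data. Of the reference probe sets, 2.67% on MOE430A and 4.65% on MOE430B were themselves above the limit on all 3 arrays. The limit was drawn from these same probe sets, so these shares are low by construction and measure no error rate. The genes named were the 10 hyaluronan genes, every gene of the wider pathway list above the limit, and others of that list that a result asked for. Marker genes given with values, and those whose signals are printed among the wider genes, were picked after their values were seen. The genes and lists were chosen with earlier results of these data known. Alternatives were the 90th and 99th percentile limit, receptor families alone as reference, a mean limit per chip, quantile normalization, array median centring, no intensity trend, no filter, log2(signal + 16), MOE430A alone, no probe sets of shared sequence (IDs ending in _x_at, _s_at or _a_at), 1 probe set per gene, and leaving out each replicate. On MOE430B the receptor families had only 14 probe sets, under the minimum of 20 set for a reference. There the MOE430A receptor limit was used instead, shifted by the median log2 difference of probe sets held by both chips. Python 3.11.15 and pandas 2.3.3 were used for the rest.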

Additional observations from a re-analysis of the deposited data

Results flagged for a closer look

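A probe set named for 2 genes, and so used in no count, exceeded the limit in replicates 1, 2 and 3 alike. This was the MOE430A set 1419213_at, annotated to Naa80 and Hyal1 and designed on the Naa80 transcript record, with a mean of 1107 ± 145 (SD, n = 3), at 1.22 to 1.55 times the limit. Its counterpart on the Hyal1 record, 1449954_at, had a mean of 478 ± 42.5, below the limit on all 3 arrays. Whether Hyal1 is above the limit in these cells was therefore not settled.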

How the results depend on the processing

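With the 99th percentile as limit, 4 of 9 hyaluronan genes were above it in place of 8, against 27.0% of all genes, and those lost were Has2, Has3, Hyal2 and Tnfaip6. Under this limit the mean log2 distance of Has3 was -0.082 and that of Tnfaip6 -0.19. Hmmr, at -2.02 by its remaining probe set, lost its place without probe sets of shared sequence. Tnfaip6 also lost it with receptor families as reference and with a mean limit per chip, which left 7 genes above (34.2% and 36.1% of all genes). Under the other alternatives, each replicate left out included, 8 of 9 remained the count, beside 34.4% to 42.7% of all genes. Limma placed 9 of 27 probe sets above the limit (20.6% of all). With the 99th percentile limit it placed 6 of 27 (14.9%), and with the 90th 10 of 27 (24.1%). Without probe sets of shared sequence it placed 7 of 18 (16.3%), and with MOE430A alone 8 of 18 (32.5%). The other alternatives gave 8 or 9 of 27 (17.8% to 20.6%). Has3 was lost in 5 of the alternatives. The count of wider pathway genes was 35 of 65 (36.1% of all genes). It ranged from 27 of 59 without probe sets of shared sequence (30.5%) to 39 of 65 with the 90th percentile limit (41.7%). With MOE430A alone it was 32 of 56 (42.7%). The replicate test gave Cd44 adjusted p-values of 0.76 to 0.993 with limma. Under 5 of its 8 alternatives (quantile normalization, no intensity trend, no filter on low signals, without replicate 2, without replicate 3) limma called 0 genes of the whole series (32 to 92 at an unadjusted p under 0.05), so these say nothing about Cd44, and under the others 4 to 7 genes did. No paired analysis was possible because no result compares the chips, which alone share replicate numbers. Having 3 arrays per chip, and a higher limit on MOE430B, limits what can be read near background.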

Other observations

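The Hmmr probe set 1427541_x_at read 783, 784 and 782, an SD of 0.88 in signal, and 0.0% of 5013 MOE430A probe sets of like signal (within a factor of 1.5) had a smaller SD on the log2 scale. In the hexosamine pathway, Pgm3 read 5008, 288 and 3824 on MOE430B, above the limit in replicates 1 and 3 and at 0.10 of it in replicate 2. Both are given as values only.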
